A study of Oryctolagus cuniculus with 16 samples.

Results

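The genes that make heme were followed step by step through the pathway in the femoral head of a rabbit model of Perthes disease. The members were 9 genes, taken by symbol from the table of gene counts: the enzymes *ALAS1*, *ALAS2*, *ALAD*, *UROS*, *UROD*, *CPOX*, *PPOX* and *FECH*, and the mitochondrial glycine carrier *SLC25A38*. They were 9 of the 20255 genes in the table, and all 9 were among the 15305 genes with enough counts to be tested. Total RNA of the femoral head, depleted of ribosomal RNA, was sequenced in 5 Perthes rabbits and 3 control rabbits. The Perthes rabbits were wild-type animals of 8 weeks operated on at the hip, with a suture tied around the femoral neck and the ligamentum teres divided. The controls were wild-type rabbits, and their age and any sham operation were not given in the sources used here. The model stops blood flow by surgery, and the time from surgery to sampling was likewise not given. Each library was a bulk extract of tissue that holds cartilage, bone and marrow together.

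Heme is the iron-bearing ring that hemoglobin and many enzymes carry, and red cell precursors in the marrow are its main makers. Synthesis begins in the mitochondrion, where aminolevulinate synthase joins glycine to succinyl-CoA, passes through porphyrin precursors in the cytosol, and ends in the mitochondrion, where ferrochelatase puts iron into protoporphyrin. The synthase has an erythroid form, *ALAS2*, and a form used by other cells, *ALAS1*.

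The libraries held 27331725 to 29461482 counts in the Perthes rabbits and 26757087 to 28783082 in the controls. Levels are given as CPM, counts scaled to library size after TMM normalization, with the SD over 5 Perthes and 3 control rabbits where a mean is given. A gene was called when edgeR's quasi-likelihood test gave a Benjamini-Hochberg adjusted p below 0.05 over all 15305 tested genes. The markers of the labelled tissue were present in every library. The cartilage collagen *COL2A1* ranged from 29008 to 116594 CPM in the Perthes rabbits and from 42826 to 57453 CPM in the controls, and the bone collagen *COL1A1* from 44666 to 143897 and from 72816 to 90894 CPM. Skeletal muscle markers summed to at most 2.38 CPM in a Perthes rabbit and 9.48 CPM in a control. Perthes rabbit 2 stood apart from the other 4 Perthes rabbits in the markers of red cell precursors. Its 23 erythroid markers summed to 3730 CPM, against 766 to 1174 CPM in the others and 7236 to 8431 CPM in the controls.

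Most steps of heme synthesis had less RNA in Perthes femoral heads. Of the 9 members, 7 were called lower in Perthes, where 8.86% of all tested genes were. None was called higher, where 6.21% of all tested genes were, and in both edgeR and DESeq2 0 members were higher even at an unadjusted p below 0.05. The median log2 fold change of the 9 was -1.87, and that of all tested genes was 0.02. In 8 of the 9, every Perthes rabbit lay below every control, which held for 13.9% of all tested genes. The member with overlapping groups was *ALAS1*, and *ALAS2* was the member whose groups lay apart without a call. The shares of 8.86% and 6.21% also stand beside every list count below from edgeR with TMM on all 8 rabbits. Other fits called other numbers of all genes lower and higher. These were 1198 and 802 without Perthes rabbit 1, 1628 and 941 without 2, and 646 and 385 without 3. They were 1423 and 1267 without Perthes rabbit 4, and 550 and 351 without 5. They were 184 and 73 without control rabbit 1, and 1183 and 695 without control rabbit 3. With library totals they were 1705 and 678, and with DESeq2 1917 and 1700.

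These calls lay near the threshold and depended on single rabbits. Without Perthes rabbit 2, edgeR called 8 members lower, *ALAS2* among them. The log2 fold changes of the called members were then -2.78 for *ALAD*, -2.11 for *UROS*, -1.93 for *UROD*, -2.72 for *CPOX*, -2.15 for *PPOX*, -3.81 for *FECH* and -1.24 for *SLC25A38*, each further from 0 than with all 8 rabbits. It called 6 members without control rabbit 3, 5 without Perthes rabbit 1 and 4 without Perthes rabbit 4. Without Perthes rabbit 3, without Perthes rabbit 5 or without control rabbit 1 it called 1 member, *UROS*. Without control rabbit 2 it called 0 of 15594 genes, with a smallest adjusted p of 0.0519, while 2098 genes were lower and 1624 higher at an unadjusted p below 0.05. Every call named in what follows was therefore lost in that fit. In each of the 8 fits that left out a rabbit, 8 members were lower at an unadjusted p below 0.05. DESeq2 on all 8 rabbits called 8 members lower.

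**Figure D1:**
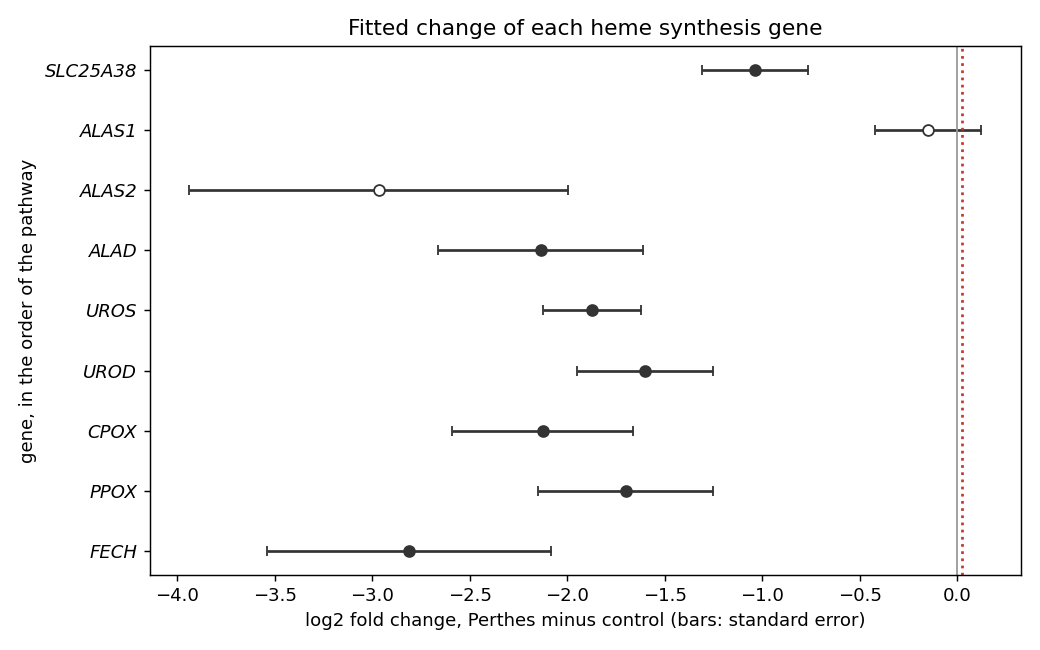
Fitted log2 fold change of Perthes against control for each heme synthesis gene from edgeR, listed from the glycine carrier to ferrochelatase, with bars of 1 standard error, filled points for called genes and a dotted line at the median of all tested genes (0.02). *ALAS1* lies at -0.15 and all other genes lie between -1.04 and -2.97.

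The entry step has alternative enzymes, *ALAS2* and *ALAS1*, and edgeR called neither on all 8 rabbits. *ALAS2* (gene ID 100345273), the erythroid synthase, stood at 20.4, 733, 135, 167 and 32.4 CPM in Perthes rabbits 1 to 5 and at 1555, 1906 and 1639 CPM in control rabbits 1 to 3. All 5 Perthes rabbits lay below all 3 controls, with rabbits 1 and 5 lowest and rabbit 2 nearest to the controls. The fitted level was 7.81-fold lower in Perthes, a log2 fold change of -2.97 with a standard error of 0.97. The edgeR adjusted p was 0.0692, so the gene was not called on all 8 rabbits. An exact two-sided permutation test of log2 CPM gave an unadjusted p of 0.0357, the smallest that 5 against 3 rabbits can give. Without Perthes rabbit 2 the log2 fold change was -4.26 with an edgeR adjusted p of 0.00667, and DESeq2 gave an adjusted p of 0.0357 on all 8 rabbits. Over all 15 alternatives the adjusted p from edgeR or DESeq2 ran from 0.00667 to 0.170.

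*ALAS1* (gene ID 100345847), the synthase of other cells, stood at 51.3, 49.0, 54.1, 23.9 and 47.1 CPM in Perthes rabbits 1 to 5. The controls stood at 64.0, 45.0 and 41.1 CPM. Perthes rabbit 4 was the lowest of all, the other 4 Perthes rabbits lay within the range of the controls, and the groups overlapped. The log2 fold change was -0.15 with a standard error of 0.27 (edgeR adjusted p = 0.736), and the exact two-sided permutation test gave p = 0.75. Its sign turned in 3 of 15 alternatives, where it reached at most 0.07. A difference was thus not detected for *ALAS1*.

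The ratio of *ALAS2* to *ALAS1* counts was 0.398, 15.0, 2.49, 7.00 and 0.688 in Perthes rabbits 1 to 5. In control rabbits 1 to 3 it was 24.3, 42.4 and 39.9. The transcripts' lengths enter this ratio equally in every rabbit, so it compares rabbits and not the genes' levels. Every Perthes rabbit had a lower ratio than every control, with rabbits 1 and 5 lowest and rabbit 2 nearest to the controls.

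*SLC25A38* (gene ID 100343972) brings the glycine for this step into the mitochondrion. It stood at 14.4, 32.4, 23.6, 17.3 and 18.6 CPM in Perthes rabbits 1 to 5 and at 53.3, 44.5 and 32.8 CPM in the controls. The groups did not overlap, but Perthes rabbit 2 and control rabbit 3 were less than 1 CPM apart. The carrier fell by 1.04 on the log2 scale with a standard error of 0.27 (edgeR adjusted p = 0.0351), the smallest fall of the 7 members called. Its call was lost without Perthes rabbits 1, 3, 4 or 5 and without control rabbits 1 or 2.

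The cytosolic members were all lower in Perthes. *ALAD* (gene ID 100356141) joins aminolevulinate molecules into the pyrrole porphobilinogen. Its levels were 6.52, 39.3, 14.2, 11.3 and 9.39 CPM in Perthes rabbits 1 to 5 and 96.5, 62.9 and 53.4 CPM in the controls. The groups did not overlap, and Perthes rabbit 2 was again the highest of its group. *ALAD* was 4.40-fold lower, a log2 fold change of -2.14 with a standard error of 0.53 (edgeR adjusted p = 0.0286).

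*UROS* (gene ID 100340869) closes a linear tetrapyrrole into a ring. Its levels were 11.8, 25.8, 15.9, 14.1 and 13.1 CPM in Perthes rabbits 1 to 5 and 65.0, 61.8 and 50.6 CPM in the controls. The Perthes rabbits were close together and the lowest control was 1.96 times the highest of them. *UROS* was 3.66-fold lower, a log2 fold change of -1.87 with a standard error of 0.25. Its edgeR adjusted p of 0.0118 was the lowest of the 9 and its unadjusted p ranked 45 among the 15305 genes. It was also the member whose call was lost in the fewest fits, only in that without control rabbit 2 and in that with replicate number as a block.

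*UROD* (gene ID 100347910) trims the side chains of the ring. It stood at 24.8, 72.8, 41.7, 28.1 and 32.2 CPM in Perthes rabbits 1 to 5 and at 160, 107 and 96.3 CPM in the controls. The groups did not overlap, with rabbit 2 highest and rabbits 1 and 4 lowest among the Perthes animals. *UROD* was 3.03-fold lower, a log2 fold change of -1.60 with a standard error of 0.35 (edgeR adjusted p = 0.0205). The calls of *ALAD* and *UROD*, like that of *CPOX*, were lost without Perthes rabbits 3 or 5 and without control rabbits 1 or 2.

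The mitochondrial members that end the pathway were lower as well. *CPOX* (gene ID 100339410), which oxidises coproporphyrinogen, stood at 11.5, 46.5, 16.3, 13.0 and 11.1 CPM in Perthes rabbits 1 to 5. The controls stood at 100.4, 80.8 and 76.4 CPM. Perthes rabbits 1, 3, 4 and 5 lay close together, and rabbit 2 lay above them but below the controls. *CPOX* was 4.36-fold lower, a log2 fold change of -2.13 with a standard error of 0.46 (edgeR adjusted p = 0.0202).

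*PPOX* (gene ID 100340158) makes protoporphyrin from its reduced precursor. It stood at 5.61, 23.9, 12.0, 8.95 and 7.15 CPM in Perthes rabbits 1 to 5 and at 51.9, 35.6 and 24.9 CPM in the controls. The highest Perthes rabbit, rabbit 2, and the lowest control, control 3, were nearly level, at a ratio of 1.04. *PPOX* was 3.25-fold lower, a log2 fold change of -1.70 with a standard error of 0.45 (edgeR adjusted p = 0.0357). Its call was lost in the same 6 fits as that of *SLC25A38*.

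*FECH* (gene ID 100346972), ferrochelatase, inserts the iron. Its levels were 7.33, 95.9, 21.2, 24.8 and 10.4 CPM in Perthes rabbits 1 to 5 and 242, 233 and 198 CPM in the controls. The groups lay well apart, with rabbits 1 and 5 lowest and the 3 controls within 1.23-fold of each other. *FECH* was 7.02-fold lower, a log2 fold change of -2.81 with a standard error of 0.73, the lowest fold change of the called members (edgeR adjusted p = 0.0334). The call of *FECH* was lost without Perthes rabbits 3, 4 or 5 and in each of the 3 fits that left out a control.

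**Figure D2:**
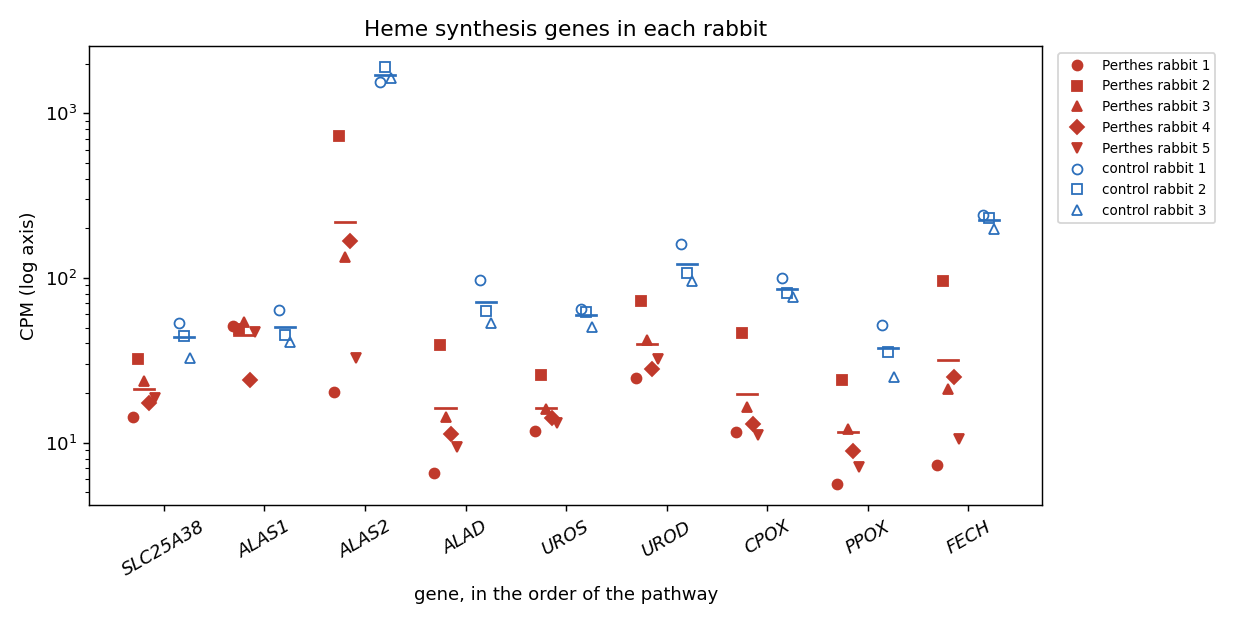
CPM of each heme synthesis gene in every rabbit on a log axis, in pathway order, with filled red symbols for the 5 Perthes rabbits, open blue symbols for the 3 controls and short lines for the group means; heights are not scaled to transcript length. Groups overlap for *ALAS1* and lie apart for the other genes, and Perthes rabbit 2 (squares) is highest of its group everywhere but in *ALAS1*.

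The rabbits kept a similar order from step to step. Perthes rabbit 2 was the highest Perthes rabbit in 8 of 9 members and rabbit 1 the lowest in 7 of 9. The exceptions were *ALAS1*, where rabbit 3 was highest and rabbit 4 lowest, and *CPOX*, where rabbit 5 was lowest. Members differed in how widely they spread within the Perthes group. The highest rabbit exceeded the lowest 35.9-fold for *ALAS2* and 13.1-fold for *FECH*. It did so 6.03-fold for *ALAD*, 4.27-fold for *PPOX*, 4.19-fold for *CPOX* and 2.94-fold for *UROD*. The spread was smallest for *ALAS1* at 2.27-fold, *SLC25A38* at 2.25-fold and *UROS* at 2.19-fold. In the controls the widest spread of any member was 2.08-fold, for *PPOX*. *ALAS2* and *FECH* thus had the lowest fold changes and the widest spread among Perthes rabbits.

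Whether the steps moved by unequal amounts was tested on within-rabbit ratios to *ALAS2*. The log2 ratio of each of the 8 other members to *ALAS2* was compared between groups by an exact two-sided permutation test. All 8 differences were above 0. *ALAS2* had the lowest log2 fold change of the members, so this sign was set by the choice of reference and shows nothing further. The ratio of *ALAS1* to *ALAS2* was 3.88 higher in Perthes on the log2 scale (standard error 1.32), and that of *SLC25A38* was 2.99 higher (standard error 1.02). For these ratios every Perthes rabbit lay above every control (exact p = 0.0357 each, unadjusted). The groups overlapped for the others. Their differences were 2.38 for *UROD*, 2.23 for *PPOX*, 2.14 for *UROS*, 1.70 for *CPOX* and 1.67 for *ALAD* (exact p = 0.0714 each). For *FECH* the difference was 0.63 with a standard error of 0.42 (exact p = 0.107). With Benjamini-Hochberg adjustment over the 8 ratios the lowest value was 0.0816, so no ratio passed, and a p below 0.05 after adjustment was out of reach unless more of the ratios separated the groups.

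The markers of red cell precursors moved in the same direction as heme synthesis. These were genes of the red cell membrane, receptors and enzymes outside heme synthesis and the globins, of which 23 of 24 listed were in the table. In all 23, every Perthes rabbit lay below every control, beside 13.9% of all tested genes. The median log2 fold change was -2.94, against 0.02 over all tested genes. edgeR called 9 of the 23 lower and 0 higher, DESeq2 called 16 lower and 0 higher, and all 23 had an unadjusted p below 0.05. Their summed level was 766, 3730, 1034, 1174 and 766 CPM in Perthes rabbits 1 to 5, and 8431, 8262 and 7236 CPM in the controls. No marker was at 0 in all libraries. The most abundant over the 8 libraries was the anion exchanger *SLC4A1*, at 4.53, 819, 149, 149 and 23.9 CPM in Perthes rabbits and 2296, 1902 and 1560 CPM in controls. Its log2 fold change was -3.07 with a standard error of 1.20 (edgeR adjusted p = 0.114), and -4.56 without Perthes rabbit 2, where it was called (edgeR adjusted p = 0.0201). Within the Perthes group *TFRC* was the most abundant. In bulk tissue, fewer cells of a type and less RNA per cell cannot be told apart, and the part that the number of erythroid cells had in the heme synthesis results was not tested.

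The lowest p-values of the erythroid list were those of membrane skeleton and surface genes. The adducin *ADD2* had 36.0 ± 15.0 CPM in Perthes and 132 ± 23.1 CPM in controls (log2 fold change -1.88, edgeR adjusted p = 0.0122). The glycophorin *GYPC* had 20.9 ± 13.3 and 87.8 ± 9.75 CPM (log2 fold change -2.07, edgeR adjusted p = 0.0192). *EPB41* and *XK* each had a log2 fold change of -2.58, with edgeR adjusted p of 0.0251 and 0.0272. The transferrin receptor *TFRC*, which takes up the iron, had the smallest fall of the 23, at 556 ± 79.4 and 884 ± 53.9 CPM (log2 fold change -0.67, edgeR adjusted p = 0.0443). The count of 9 called markers rose to 22 without Perthes rabbit 2. It was 7 without Perthes rabbit 1, 5 without Perthes rabbit 4 or control rabbit 3, 2 without Perthes rabbits 3 or 5, and 0 without control rabbits 1 or 2.

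Levels of the members relative to the erythroid markers depended on which markers formed the sum. *TFRC*, which many cells express, made up 83.7% of the sum in Perthes rabbit 1 and 75.6% in Perthes rabbit 5, but 10.1 to 13.1% in the controls. The sum was therefore also taken over the 22 other markers, a choice made after the values were seen. It was 125, 3148, 607, 622 and 187 CPM in Perthes rabbits 1 to 5 and 7578, 7409 and 6290 CPM in the controls. Even so, *ADD2* and *EPB41* together gave 69.4 of the 125 CPM in Perthes rabbit 1, so the sum in that rabbit still rested on few genes.

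For *FECH* the order of the groups depended on this choice. Per 1000 CPM of the 22 markers it had 58.6, 30.5, 34.9, 39.9 and 56.0 CPM in Perthes rabbits 1 to 5 and 32.0, 31.4 and 31.4 in the controls. With *TFRC* in the sum it had 9.57, 25.7, 20.5, 21.2 and 13.6 against 28.8, 28.2 and 27.3. It was thus not set apart from the markers in a direction that held. *ALAS2* had 163, 233, 222, 268 and 174 per 1000 in the Perthes rabbits and 205, 257 and 261 in the controls without *TFRC*. With *TFRC* in the sum it had 26.6, 197, 130, 142 and 42.3 against 184, 231 and 226, and only Perthes rabbit 2 reached the controls. Rabbits 1 and 5 were lowest with both sums.

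With either sum, *ALAS1*, *SLC25A38*, *UROD* and *PPOX* were higher relative to the markers in every Perthes rabbit than in any control. Over the 22 markers, *ALAS1* had 410, 15.6, 89.1, 38.3 and 253 per 1000 in Perthes rabbits 1 to 5 and 6.07 to 8.44 in controls. *SLC25A38* had 115, 10.3, 38.8, 27.8 and 99.8 against 5.22 to 7.03. *UROD* ranged from 23.1 to 198 against 14.5 to 21.1, and *PPOX* from 7.60 to 44.8 against 3.96 to 6.85. The highest value of each was that of Perthes rabbit 1, whose divisor was smallest, and the lowest that of Perthes rabbit 2. *CPOX* joined them only when *TFRC* was left out, and *ALAD* and *UROS* overlapped between groups with both sums. For *UROS* the overlap came from Perthes rabbit 2 alone, at 8.21 against 8.04 to 8.58 in the controls. No test was made of these values, since the divisor itself moved with the groups. Both sums were lower in every Perthes rabbit than in any control. A gene that fell less than the markers therefore comes out higher by the choice of divisor. The share of all tested genes that did so was not counted, so this is not shown to be particular to these members.

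**Figure D3:**
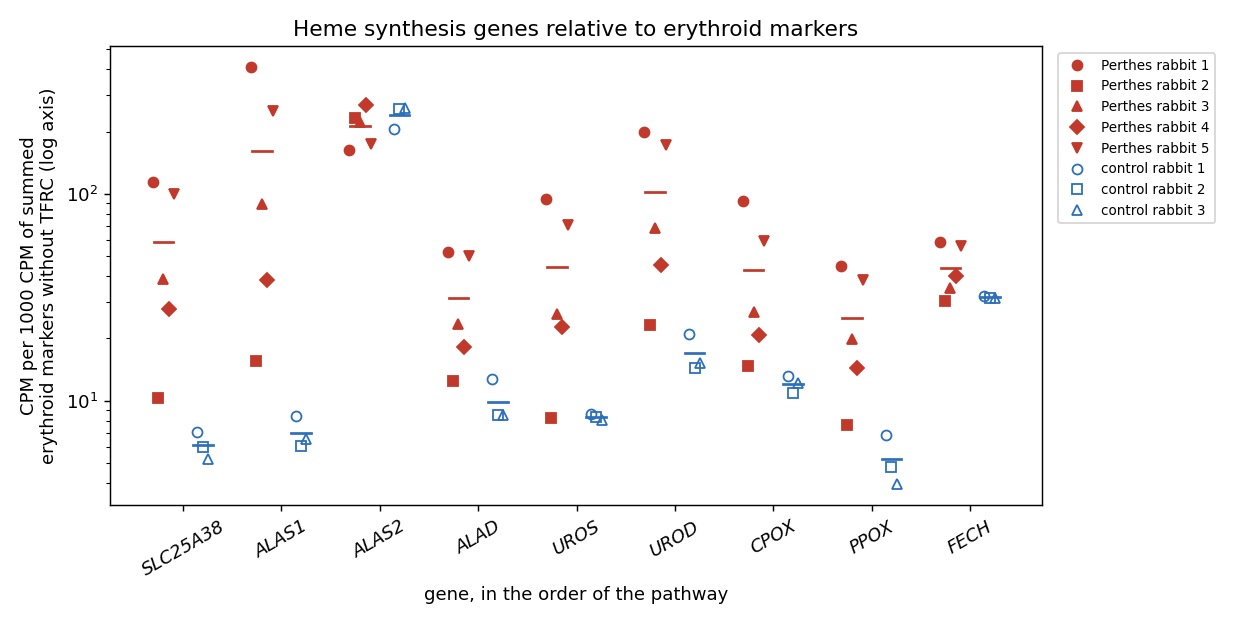
CPM of each heme synthesis gene per 1000 CPM of the 22 erythroid markers other than *TFRC*, summed in every rabbit, on a log axis, with filled red symbols for Perthes rabbits, open blue symbols for controls and short lines for the group means. *ALAS2* and *FECH* overlap between the groups, at 163 to 268 against 205 to 261 and 30.5 to 58.6 against 31.4 to 32.0, while *ALAS1* and *SLC25A38* lie higher in every Perthes rabbit.

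Neutrophil markers were lower too. All 8 neutrophil markers in the table lay lower in every Perthes rabbit than in any control, which held for 13.9% of all tested genes. The median log2 fold change of the 8 markers was -3.73. Of these, edgeR called 4 and DESeq2 all 8, and edgeR with library totals as the scaling called 7. The neutrophil sum was 27.7, 1815, 694, 1750 and 193 CPM in Perthes rabbits 1 to 5 and 22442, 7096 and 6811 CPM in controls. Its most abundant gene, the lipocalin *LCN2*, had a log2 fold change of -3.87 (edgeR adjusted p = 0.0385). That count of 4 became 7 without Perthes rabbit 1 and 0 without Perthes rabbits 3 or 5 or any single control. Perthes rabbit 4 was near rabbit 2 in the neutrophil sum but not in the erythroid sum.

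Of 6 megakaryocyte markers, 2 were called lower, among them *ITGA2B* (log2 fold change -2.71, edgeR adjusted p = 0.0274), and the list's median was -3.22. Their sum was 138, 577, 308, 287 and 338 CPM in Perthes rabbits and 904, 651 and 549 CPM in controls, most of it from *ITGB3*, whose groups overlapped. The count was 5 without Perthes rabbit 2, 4 without Perthes rabbit 1, 1 without Perthes rabbit 4 or control rabbit 3, and 0 without Perthes rabbits 3 or 5 or control rabbits 1 or 2. Of 6 tested B cell markers, edgeR called 1 lower, where 8.86% of all tested genes were, and DESeq2 called 2. Of these markers, 3 were lower and 0 higher at an unadjusted edgeR p below 0.05, and the median was -1.23. Their sum, in which *EBF1* was the most abundant gene, overlapped between groups, at 83.6, 96.3, 86.5, 64.8 and 92.4 CPM in Perthes rabbits and 72.6, 113 and 81.0 CPM in controls. The edgeR call was *MS4A1*, with an edgeR adjusted p of 0.04999, and the count was 3 without Perthes rabbit 2 and 0 without Perthes rabbits 1, 3 or 5 or any single control. All 8 proliferation markers were called lower, with a median of -1.56 and a sum of 258, 657, 288, 377 and 275 CPM in Perthes rabbits against 1536, 1399 and 1398 CPM in controls. The most abundant, *MKI67*, had a log2 fold change of -2.51 (edgeR adjusted p = 0.0133). The proliferation count was 6 without Perthes rabbits 3 or 5 and 2 without control rabbit 1. The part of these cell types in the heme synthesis results was not tested.

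Macrophage markers were called in both directions, and several lists of tissue markers had no call. Of 10 macrophage markers, 5 were called higher and 1 lower, with a median log2 fold change of 1.17. With library totals as the scaling, 3 were called higher and 2 lower. *CD68* rose by 2.02 on the log2 scale and *CSF1R*, the most abundant, by 1.07, while the complement gene *C1QC* fell by 2.09 (edgeR adjusted p of 0.0165, 0.0326 and 0.0133). The count of higher macrophage genes was 2 without Perthes rabbits 1, 3 or 5, 1 without control rabbit 3 and 0 without control rabbits 1 or 2. The count of lower macrophage genes was 2 without Perthes rabbit 2 and 0 without control rabbits 1 or 2. Of 9 fibroblast and stroma markers, 3 were called higher and 0 lower, with a median of 0.94. The 3 calls became 0 without Perthes rabbits 1 or 5 or control rabbits 1 or 2, 1 without Perthes rabbits 2 or 3 and 2 without Perthes rabbit 4. Of 8 endothelial markers, 1 was called lower, where 8.86% of all tested genes were, and the median was -0.30. The gene called was *ERG* (log2 fold change -0.59, edgeR adjusted p = 0.0359). Among the fits that left out a rabbit, its call held only without Perthes rabbits 1 or 4. In the fits without Perthes rabbit 4, without Perthes rabbit 5 and with DESeq2, 1 endothelial marker was called higher. edgeR called 0 of 7 tested cartilage markers (median 0.96), 0 of 10 osteoblast and osteocyte markers (median -0.04), 0 of 4 adipocyte markers (median 0.06) and 0 of 2 tested muscle markers (median -1.48). At an unadjusted p below 0.05 these numbers were 1, 2, 0 and 1, and DESeq2 called 0, 1, 0 and 0. Leaving out control rabbit 3 gave 2 calls among the osteoblast markers, and leaving out Perthes rabbit 2 gave 1 among the adipocyte markers.

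The carriers and helpers of heme synthesis were mostly lower. Of 11 tested, edgeR called 6 lower and 1 higher, and the median log2 fold change was -0.91. Mitoferrin 1, *SLC25A37*, which carries iron into the mitochondrion of red cell precursors, stood at 6.72, 56.1, 18.2, 23.0 and 7.45 CPM in Perthes rabbits 1 to 5. The controls stood at 162, 171 and 156 CPM. Its log2 fold change was -2.87 with a standard error of 0.62 (edgeR adjusted p = 0.0192), and the order of the Perthes rabbits was that of *FECH*. Its relative in other cells, mitoferrin 2 (*SLC25A28*), had 9.49 ± 1.30 CPM in Perthes and 17.8 ± 5.02 CPM in controls, a log2 fold change of -0.91 with a standard error of 0.21 (edgeR adjusted p = 0.0232).

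*FAM210B*, a mitochondrial partner of ferrochelatase in red cell precursors, had 28.7 ± 7.26 CPM in Perthes and 84.3 ± 29.3 CPM in controls (log2 fold change -1.56, edgeR adjusted p = 0.0135). Perthes rabbit 1, lowest in 7 of 9 members, was the highest Perthes rabbit for *FAM210B*, at 39.2 CPM. The cell surface glycine transporter *SLC6A9* fell by 1.33 on the log2 scale (edgeR adjusted p = 0.0153), and the porphyrin transporter *ABCB6* fell by 1.49 (edgeR adjusted p = 0.0170). *SLC25A39*, a mitochondrial glutathione carrier and the most abundant gene of the list, fell by 1.60 (edgeR adjusted p = 0.0202). *PGRMC1*, a heme-binding partner of ferrochelatase, was the gene called higher. It had 43.5 ± 8.99 CPM in Perthes and 22.1 ± 1.75 CPM in controls, a log2 fold change of 0.97 with a standard error of 0.20 (edgeR adjusted p = 0.0166). *ABCB10*, an inner membrane transporter that binds mitoferrin, had at most 5 counts in a library and was not tested. The count of 6 lower genes became 3 without Perthes rabbits 3 or 5 and 1 without control rabbit 1, where *PGRMC1* also lost its call.

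Genes that supply the substrates of the entry step showed no call. edgeR called 0 of 8 genes that make or use succinyl-CoA and glycine, as did DESeq2, and 1 was lower and 1 higher at an unadjusted p below 0.05. The median log2 fold change was 0.19. *SUCLG2*, a subunit of succinyl-CoA ligase, had 59.6 ± 6.55 CPM in Perthes and 45.1 ± 3.91 CPM in controls (log2 fold change 0.40, edgeR adjusted p = 0.0969). *SHMT1*, which interconverts serine and glycine, had 6.66 ± 2.79 and 11.9 ± 4.34 CPM (log2 fold change -0.84, edgeR adjusted p = 0.153). The most abundant, *OGDH*, had overlapping groups at 356 ± 75.5 and 319 ± 42.1 CPM. Of 12 mitochondrial matrix enzymes outside heme synthesis, edgeR called 0 and DESeq2 called 1 higher, with 2 higher and 0 lower at an unadjusted edgeR p below 0.05. edgeR called 2 of them higher without Perthes rabbit 4 and 1 without Perthes rabbit 2. Their median was 0.12, and citrate synthase (*CS*) had 208 ± 42.2 and 214 ± 19.7 CPM.

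Ferrochelatase carries an iron-sulfur cluster, and genes that assemble such clusters were partly lower. Of 13 tested, edgeR called 4 lower and 0 higher, with 7 lower and 1 higher at an unadjusted p below 0.05. With library totals as the scaling, edgeR called 7 lower. DESeq2 called 6 lower and 0 higher after adjustment, and the median log2 fold change was -0.57. *BOLA3* fell by 1.12 on the log2 scale (edgeR adjusted p = 0.0150) and the glutaredoxin *GLRX5*, whose loss causes sideroblastic anemia, fell by 1.54 (edgeR adjusted p = 0.0218). *LYRM4* fell by 0.57 (edgeR adjusted p = 0.0479). *NFU1* had 6.76 ± 2.41 CPM in Perthes and 4.06 ± 1.51 CPM in controls without a call (log2 fold change 0.74, edgeR adjusted p = 0.176). The chaperone *HSPA9*, the most abundant of the list, had overlapping groups at 95.9 ± 21.5 and 86.5 ± 10.9 CPM. Of these genes, 7 were called lower without Perthes rabbit 2, 1 without Perthes rabbits 3 or 5, and 0 without control rabbit 1.

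Regulators of the pathway moved in both directions. Of 13 tested, edgeR called 4 lower and 2 higher, and the median log2 fold change was -0.82. *EIF2AK1*, the kinase that slows translation when red cell precursors lack heme, stood at 46.3, 143, 66.5, 68.5 and 53.3 CPM in Perthes rabbits 1 to 5 and at 295, 297 and 256 CPM in the controls. It had no overlap between groups and a log2 fold change of -1.90 with a standard error of 0.34 (edgeR adjusted p = 0.0135). The erythroid transcription factor *TAL1* fell by 2.45 (edgeR adjusted p = 0.0210), and its partner *LDB1* by 0.90 (edgeR adjusted p = 0.0160).

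*GATA1*, the factor that drives *ALAS2* in red cell precursors, stood at 0.304, 38.1, 7.31, 6.84 and 1.53 CPM in Perthes rabbits 1 to 5 and at 129, 99.8 and 83.5 CPM in the controls. The groups lay apart, but its log2 fold change of -3.27 had a standard error of 1.08 and was not called (edgeR adjusted p = 0.0708). *KLF1* had 2.95 ± 4.44 and 16.4 ± 4.67 CPM (log2 fold change -2.48, edgeR adjusted p = 0.147). Without Perthes rabbit 2 both were called, with log2 fold changes of -4.71 and -4.04 and edgeR adjusted p of 0.00876 and 0.0132. The iron regulatory proteins bind the *ALAS2* messenger RNA when iron is scarce. *ACO1*, 1 of them, had 114 ± 24.6 CPM in Perthes and 51.1 ± 11.0 CPM in controls and rose by 1.16 on the log2 scale (edgeR adjusted p = 0.0164). The other, *IREB2*, had 105 ± 5.62 and 120 ± 5.38 CPM (log2 fold change -0.20, edgeR adjusted p = 0.338). *HIF1A*, the oxygen-regulated factor, rose by 1.38 (edgeR adjusted p = 0.0455). The count of 4 lower regulators was 7 without Perthes rabbit 2, 2 without Perthes rabbits 3 or 5 and 0 without control rabbit 1. The count of 2 higher was 1 without Perthes rabbits 1, 3, 4 or 5 and 0 without control rabbit 1.

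Among the globins, which use the heme, 1 gene of the red cell was called lower and 1 of connective tissue was called higher. The beta globin *HBB2* stood at 464, 17934, 2926, 1990 and 724 CPM in Perthes rabbits 1 to 5. The controls stood at 26951, 36817 and 21065 CPM. The groups did not overlap and Perthes rabbit 2 was near the lowest control, and the gene was not called (log2 fold change -2.56, standard error 1.05, edgeR adjusted p = 0.128). Without Perthes rabbit 2 its log2 fold change was -4.21 and it was called (edgeR adjusted p = 0.00555). Globin genes resemble each other closely, so their counts depend on how the quantification divided shared reads. Alpha globin was not analysed here. Of 5 tested globins and partners, edgeR called 1 lower and 1 higher. *HBQ1* fell by 2.23 (edgeR adjusted p = 0.0324), and the alpha globin chaperone *AHSP* had 39.2 ± 58.9 and 347 ± 44.3 CPM without a call (edgeR adjusted p = 0.107). Cytoglobin (*CYGB*), a globin of connective tissue cells, had 10.2 ± 3.46 CPM in Perthes and 2.31 ± 0.809 CPM in controls, a log2 fold change of 2.14 with a standard error of 0.38 (edgeR adjusted p = 0.0133). Without Perthes rabbit 2, 3 of these genes were called lower, and the call of *HBQ1* was lost without Perthes rabbits 3, 4 or 5 or any single control. The call of *CYGB* was lost without control rabbits 1 or 2.

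Of 9 other tested heme proteins, edgeR called 0, with 4 lower and 1 higher at an unadjusted p below 0.05, and DESeq2 called 2 lower and 1 higher. The median was -0.64. Catalase (*CAT*), the most abundant, had 201 ± 80.0 CPM in Perthes and 378 ± 82.5 CPM in controls (log2 fold change -0.91, edgeR adjusted p = 0.0895). The neutrophil enzyme *MPO* had 37.4 ± 33.6 and 364 ± 194 CPM (log2 fold change -3.28, edgeR adjusted p = 0.0712). The prostaglandin synthase *PTGS2* had the largest fold of the list, at 12.2, 7.94, 4.85, 297 and 57.8 CPM in Perthes rabbits 1 to 5 and from 3.57 to 7.18 CPM in controls. Its groups overlapped, and its log2 fold change was 3.87 (edgeR adjusted p = 0.103), or 2.00 without Perthes rabbit 4, which was far above the rest (edgeR adjusted p = 0.138). edgeR called 2 of these genes lower without Perthes rabbit 2, *CAT* among them (adjusted p = 0.0332), and 1 without Perthes rabbit 1, which was *MPO*.

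Of 11 tested genes that break down or clear heme, edgeR called 3 higher and 1 lower, 7 were not called, and the median log2 fold change was 0.24. Of all tested genes, 6.21% were called higher and 8.86% lower. Heme oxygenase 1 (*HMOX1*), which opens the heme ring, stood at 263, 82.4, 230, 269 and 468 CPM in Perthes rabbits 1 to 5 and at 57.3, 50.4 and 40.1 CPM in the controls. All 5 Perthes rabbits lay above all 3 controls, and rabbit 2, highest in heme synthesis, was the lowest of the Perthes group. *HMOX1* rose by 2.41 on the log2 scale with a standard error of 0.49 (edgeR adjusted p = 0.0165). The heme importer *FLVCR2* had 54.8 ± 17.5 CPM in Perthes and 12.7 ± 6.40 CPM in controls (log2 fold change 2.11, edgeR adjusted p = 0.0136). *LRP1*, the receptor for the heme scavenger hemopexin and the most abundant of the list, had 3571 ± 432 and 1549 ± 317 CPM (log2 fold change 1.20, edgeR adjusted p = 0.0165). The gene called lower was *BLVRB*, a biliverdin reductase abundant in red cells, with a log2 fold change of -1.23 (edgeR adjusted p = 0.0185). Of the calls of these 4 genes, those of the 3 higher genes were lost without control rabbits 1 or 2, and that of *BLVRB* also without Perthes rabbit 3. Macrophages express *HMOX1* too, and the part of the rise in macrophage markers in it was not tested.

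The genes most like *ALAS2* within the groups were sought over 8839 genes with a mean of at least 10 CPM. Likeness was Pearson's r of log2 CPM over the 8 libraries after the group means were taken away, and it is a description, since all genes share these libraries and Perthes rabbit 2 sets much of the spread. Among the 6 closest named genes were *SLC25A37*, *YPEL4*, *TSPAN8*, *KANSL3* and *MYLK3*, with r from 0.994 to 0.996. *YPEL4* was called lower (log2 fold change -2.96, edgeR adjusted p = 0.0457), but only without Perthes rabbit 2 among the fits that left out a rabbit. Of the members, *FECH* was closest to *ALAS2* with r = 0.983 at rank 26. *ALAD*, *UROS*, *PPOX* and *CPOX* lay between 0.853 and 0.885, and *UROD* and *SLC25A38* at 0.754 and 0.750. *ALAS1* had r = -0.179 with *ALAS2*. The genes closest to *ALAS1* were *PSEN2*, *HEATR3*, *ARHGAP25*, *HVCN1*, *RPL24* and *PEX7*, with r from 0.979 to 0.989, and Perthes rabbit 4 sets much of that spread.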

How the data were processed

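The authors cleaned reads with SOAPnuke and aligned them with HISAT2 2.0.4. HTSeq 1.99.2 and RSEM 1.1.17 served for quantification. What the authors deposited are expected counts without normalization, and they were rounded to whole counts. A further 8 columns repeat those used and were left out, and the small RNA table was not used here.

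The fit was edgeR 4.0.16 in R 4.3.3 with the group-aware filterByExpr and a biological coefficient of variation of 0.361. It was also run on simulated counts, and no outcome of that run is given here. Standard errors of log2 fold changes were taken as their absolute value over the root of the F statistic. Exact tests ran over all 56 divisions of the rabbits in Python 3.11.15, with a prior count of 2 in log2 CPM. The labels do not say how the rabbits of a group relate, so p-values set the group difference against the spread between these samples only.

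The 9 members and 20 further gene lists were matched by symbol, and 4 genes through RefSeq synonyms. Members and lists were chosen with earlier results of these data known. Genes named from a list were among its 4 lowest p, its largest opposite fold, its most abundant gene or a few fixed genes of iron and heme handling. Coordinates are not given because the reference build, mOryCun1.1, differs from that of the authors. Alternatives were DESeq2 1.42.0, other scalings, low-count filters and thresholds, a block for replicate number, and fits that each left out 1 of the rabbits. Leaving *TFRC* out of the erythroid sum was added after the data were seen.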

Additional observations from a re-analysis of the deposited data

Results flagged for a closer look

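Single rabbits that stood far from the rest of their group were sought by the gap to the nearest rabbit over the range of the group. By this rule chance alone marks about 1 in 20 groups of normally distributed values. The rule was applied to CPM, for which that rate was not checked, and 25 of the 86 groups checked were marked. In 22 of the 25 the rabbit was Perthes rabbit 2, on the high side, with gap over range from 0.711 to 0.865.

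Among heme synthesis genes, Perthes rabbit 2 stood out in *ALAS2* (733 CPM), *ALAD* (39.3), *CPOX* (46.5), *FECH* (95.9) and the sum of the 9 members (1119). Its summed globins were 18220 CPM and its summed erythroid markers 3730 CPM. Among regulators and helpers it stood out in *EIF2AK1* (143), *TAL1* (122), *GATA1* (38.1), *KLF1* (10.7) and *ABCB10* (0.150, a handful of counts). Among red cell genes these were *HBB2* (17934), *HBQ1* (133), *AHSP* (143), *SLC4A1* (819), *EPB41* (258) and *XK* (21.8). *TSPAN8* (39.7), *MYLK3* (21.1), *ITGA2B* (62.0) and *MKI67* (315) completed the list. These are 1 observation repeated over genes that vary together and not 22 separate ones.

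Besides that rabbit, *ALAS1* was low in Perthes rabbit 4, at 23.9 CPM, *PTGS2* was high in the same rabbit, at 297 CPM, and the muscle marker sum was high in Perthes rabbit 5, at 2.38 CPM.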

How the results depend on the processing

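The count of heme synthesis genes called lower was 7 in edgeR and ran from 0 to 8 when a rabbit was left out. All tested genes called lower numbered 1356, with a range of 0 to 1628, and those called higher 951, with a range of 0 to 1267. DESeq2 called 1917 genes lower and 1700 higher. With the fold and adjusted p that the study states, edgeR called 0 members and 0 genes in either direction, its smallest adjusted p being 0.0118. DESeq2 at those thresholds, tried after the data were seen, called 95 genes lower and 101 higher and 0 members.

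The direction of the members was steadier than the count. *ALAS1* was the exception, at -0.15 with a range of -0.27 to 0.07 over the left-out fits. It reached 0.01 without Perthes rabbit 4 and 0.069 without control rabbit 1.

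With a replicate block, 0 members were called and 0 genes in either direction, while 7 members were lower at an unadjusted p below 0.05, and the log2 fold change of *ALAS1* was 0.067. Rabbits with the same number had within-group profiles with r of -0.317, 0.161 and -0.238, so the numbers give no sign of pairing. The title of 1 control repeats number 2, and it was taken as 3 from its code, on which the block and these values rest.

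The split of calls depended on scaling, tool and single rabbits. Of the called genes 58.8% were lower with TMM, 58.5% with DESeq2 size factors in edgeR, 53.0% with DESeq2 and 71.5% with library totals. It was 52.9% without Perthes rabbit 4 and 71.6% without control rabbit 1. With totals that left out globin genes it was 75.1%, with 615 higher genes and a median shift of -0.12.

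With 3 controls, and bulk tissue of mixed cells, the values describe these rabbits. Time from surgery is not given.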
